A study of Mus musculus with 28 samples.

Results

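S100a8-high cells are the MOZ-TIF2 cells in which the transcripts of S100a8 and S100a9 together made up at least 1000 parts per 1000000 (ppm) of the cell's unique molecular identifiers (UMIs, each standing for 1 captured transcript). The class held 516 of the 2538 cells of 3 samples, or 162 of 826 in benzarone on day 1, 177 of 829 in benzarone on day 3 and 177 of 883 in DMSO on day 1. All samples were mouse C57Bl/6 c-Kit+ bone marrow cells that carried a retroviral, Ty1-tagged MOZ-TIF2 (a leukaemia fusion of the histone acetyltransferase MOZ with the nuclear receptor coactivator TIF2), sorted on GFP and serially replated in methylcellulose. They were kept for 1 or 3 days in 5 µM benzarone, which blocks the phosphatase activity of EYA proteins, or for 1 day in the solvent DMSO, with 1 sample per condition and no DMSO sample of day 3 used here. A further sample of day 5 held cells kept for 5 days in 5 µM benzarone and cells kept in DMSO, which brings the single cells to 5696 in all. The expression of the fusion came from a retroviral construct, and the sources used here do not say whether the line was 1 clone or how many cultures it came from.

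S100a8 and S100a9 encode the 2 subunits of calprotectin, a calcium-binding protein that fills the cytosol of neutrophils and appears as granulocyte precursors leave the promyelocyte stage. Neutrophil granules are filled in order. Primary granule proteins such as myeloperoxidase and elastase are made in promyelocytes, secondary granule proteins such as lactoferrin, cathelicidin and neutrophilic granule protein in myelocytes, and gelatinase and surface receptors later, while C/EBPα gives way to C/EBPε and cell division stops. MOZ-TIF2 holds marrow progenitors in a self-renewing state with sustained HOXA9 and MEIS1 transcription.

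The upstream sequences of 4 secreted granule genes are shown because Ngp, Camp and Ltf were the granule markers checked in the class and Lcn2 had a UMI in nearly all of it. The sequences are the 250 bases before the annotated start on GRCm38.p6, from RefSeq, read on the strand of the gene. They cover chr9:110419558-110419807 (+) for Ngp, chr9:109849457-109849706 (-) for Camp, chr9:111019042-111019291 (+) for Ltf and chr2:32387740-32387989 (-) for Lcn2. The capitals mark each match to TTNNGNAA on either strand, the letters of a C/EBP site.
Ngp: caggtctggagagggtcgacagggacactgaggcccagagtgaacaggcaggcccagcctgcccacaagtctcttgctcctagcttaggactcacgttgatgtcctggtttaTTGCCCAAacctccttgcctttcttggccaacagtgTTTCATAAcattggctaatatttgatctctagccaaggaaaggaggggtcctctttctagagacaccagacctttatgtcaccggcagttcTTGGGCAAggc
Camp: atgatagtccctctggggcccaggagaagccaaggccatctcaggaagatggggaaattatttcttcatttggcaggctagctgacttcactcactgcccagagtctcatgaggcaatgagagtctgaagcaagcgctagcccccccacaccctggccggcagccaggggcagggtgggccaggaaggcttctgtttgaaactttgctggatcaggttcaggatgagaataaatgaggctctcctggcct
Ltf: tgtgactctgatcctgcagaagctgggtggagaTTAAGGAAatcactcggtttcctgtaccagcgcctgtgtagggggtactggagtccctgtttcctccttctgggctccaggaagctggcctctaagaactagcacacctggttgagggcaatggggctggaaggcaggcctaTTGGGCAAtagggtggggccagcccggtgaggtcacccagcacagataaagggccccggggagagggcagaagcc
Lcn2: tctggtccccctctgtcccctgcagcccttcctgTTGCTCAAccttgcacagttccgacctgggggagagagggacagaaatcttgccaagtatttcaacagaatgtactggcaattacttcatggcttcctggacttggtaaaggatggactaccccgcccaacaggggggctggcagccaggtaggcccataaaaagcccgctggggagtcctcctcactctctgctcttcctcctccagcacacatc
The Ngp sequence held 3 matches, the Ltf sequence 2, the Lcn2 sequence 1 and the Camp sequence 0. Of all 32851 upstream windows of this length in the same source, 36.85% held at least 1 match, so a match is common. Camp, Ngp and Ltf lie near each other on chromosome 9, where 1.195 Mb spans them. No Ty1 peak of either chromatin replicate lay within 5 kb of these 4 genes or of Cebpe on chromosome 14, and 20.4% and 24.8% of 21900 protein-coding genes had one in replicates 1 and 2. The 2 chromatin replicates were made with different antibodies per the labels.

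The levels of S100a8 plus S100a9 that chose the cells ran over a wide and nearly flat range inside the class and formed 1 low peak outside it. The median was 11435 ppm in S100a8-high cells against 137 ppm in other cells in benzarone on day 1, 14477 against 146.6 in benzarone on day 3, and 19424 against 177.5 in DMSO on day 1. Next to the threshold, 25, 20 and 24 cells of these samples lay between 1000 and 2000 ppm, and 25, 29 and 30 lay between 500 and 1000. The class is thus a range cut from a continuous measure. Levels of S100a8 and S100a9 are given only as a description, here and where they order the cells of the class. Both genes were left out of every CPM, class total and test that follows, but not of the UMIs and genes counted per cell.

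**Figure D1:**
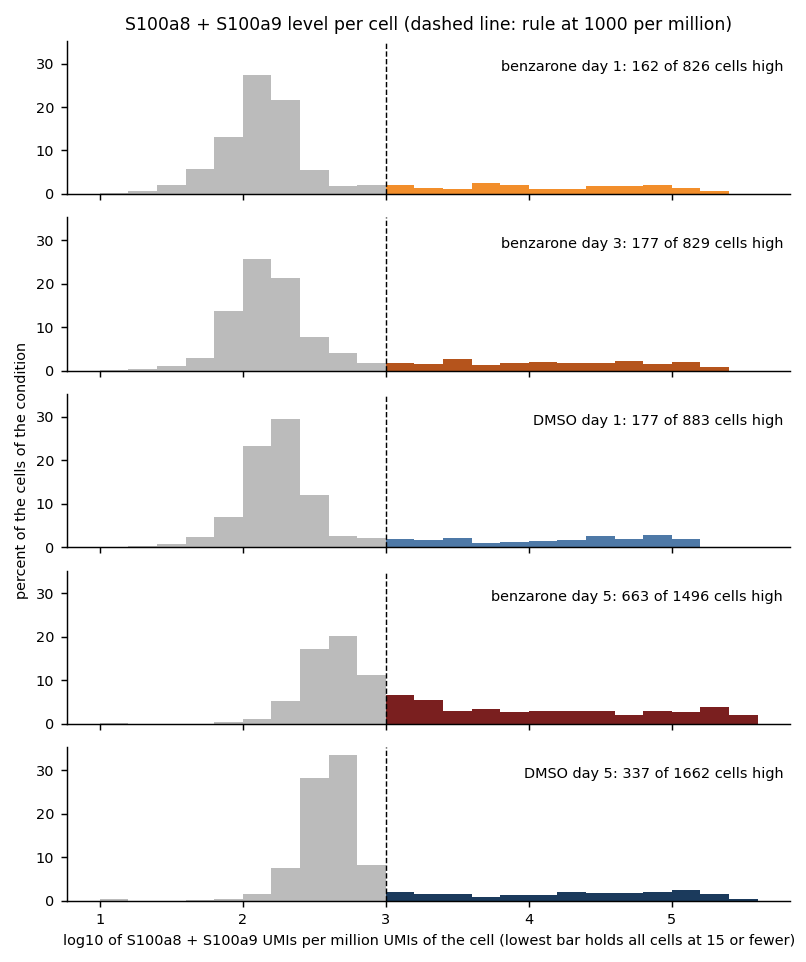
Distribution of S100a8 plus S100a9 UMIs in ppm of the UMIs of a cell (x, log10 scale) as the percent of cells (y) in each condition, with grey bars below and coloured bars above the rule at 1000 ppm. The low peak sits near 2.2 on the log10 axis on days 1 and 3 and nearer to the rule on day 5, where the benzarone cells are spread widest.

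The share of S100a8-high cells differed little among the 3 samples. It was 19.6% (exact binomial 95% interval 17.0 to 22.5) in benzarone on day 1 against 20.05% (17.45 to 22.8) in DMSO on day 1, and 21.4% (18.6 to 24.3) in benzarone on day 3. The intervals overlap and cover counting error only, and with 1 sample per condition no test between conditions is possible. On day 5 the same rule took 663 of 1496 benzarone cells, or 44.3% (41.8 to 46.9), against 337 of 1662 DMSO cells, or 20.3% (18.4 to 22.3). The other cells of day 5 stood closer to the threshold, at medians of 432.3 ppm in benzarone and 408.8 in DMSO, and 147 of the benzarone members lay between 1000 and 2000 ppm. With a threshold of 5000 ppm the day 5 shares were 27.1% in benzarone and 15.0% in DMSO, and those of the earlier samples were 14.0% in benzarone on day 1, 14.6% in benzarone on day 3 and 14.0% in DMSO on day 1.

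S100a8-high cells were slightly shallower than the other cells of their sample. Median UMIs per cell were 43388 in S100a8-high against 45179 in other cells in benzarone on day 1, 40890 against 45681 in benzarone on day 3 and 41527 against 42930 in DMSO on day 1. After each cell was thinned to 10000 UMIs, the median number of genes detected was 2544 against 2661, 2480 against 2626 and 2575 against 2643 in the same order. These counts and the thinning included S100a8 and S100a9. The 2 genes held 3.28%, 3.37% and 3.42% of the UMIs of S100a8-high cells against 0.017%, 0.018% and 0.020% in other cells. Thinned S100a8-high cells thus kept fewer UMIs for all other genes. At most 1 S100a8-high cell per sample had over 2 times the median UMIs of its sample, and 3 barcodes occurred in 2 samples.

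The markers of the proposed name were checked in single cells before any comparison. Ngp, Camp and Ltf, genes of secondary granules, summed to 95.8 to 293.1 CPM (counts per 1000000, that is UMIs of a gene per 1000000 UMIs of the class in a sample) in S100a8-high cells against 0.741 to 3.713 CPM in other cells. These transcripts sat in few cells. Only 10 of 162 S100a8-high cells in benzarone on day 1 (6.17%), 18 of 177 in benzarone on day 3 (10.2%) and 8 of 177 in DMSO on day 1 (4.52%) had at least 5 UMIs of the 3 genes, and 0 other cells of any sample did. Altogether 399 of the 516 cells had no UMI of any of them. The 5 promyelocyte markers, by contrast, summed to 10006 to 11514 CPM in S100a8-high against 9788 to 11163 CPM in other cells. A neutrophil-like name therefore rests on the summed levels and on a minority of the cells, and the cells are called S100a8-high throughout.

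The comparison of S100a8-high with other cells of the same sample asked which other RNAs accompany calprotectin in a MOZ-TIF2 culture. S100a8-high cells held more RNA of granule proteins, neutrophil receptors, the NADPH oxidase and C/EBPε, and less of HOXA genes, Meis1, stem cell genes and ribosome biogenesis genes. Of 9443 genes tested, 4004 (42.4%) were called at an adjusted p under 0.05 in edgeR's quasi-likelihood test on 6 summed profiles with the sample as a block, 2161 (22.9%) higher and 1843 (19.5%) lower. At least 2-fold differences were fewer, with 404 genes higher and 140 lower. Because the rule split the cells by their RNA, any gene that follows S100a8 from cell to cell differs, and the test asks whether it did so alike in the 3 samples. Scaling by plain totals in place of TMM shifted the median of all genes to -0.12 and gave 1580 higher and 3065 lower, or 34.0% higher among the called genes against 54.0%. Without the benzarone sample of day 1, 1318 were higher and 818 lower.

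**Figure D2:**
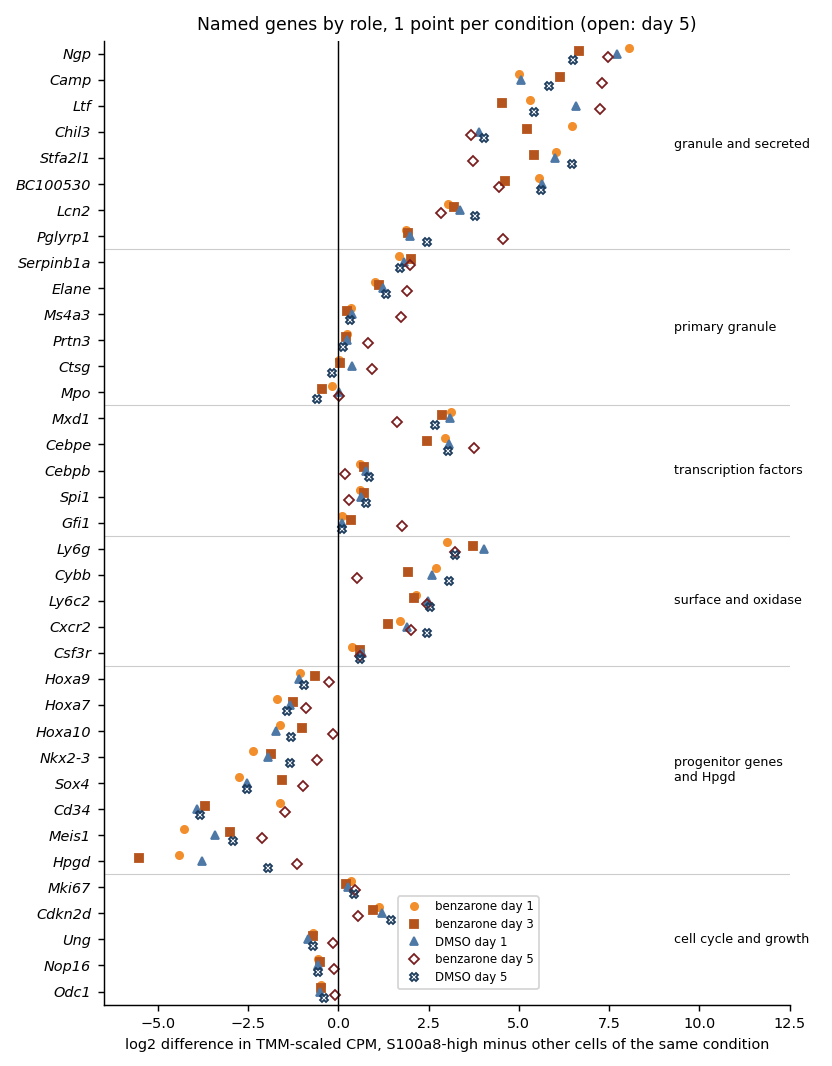
Log2 difference in TMM-scaled CPM between S100a8-high and other cells of the same condition (x) for genes grouped by role (y), with 1 symbol per condition, filled for days 1 and 3 and open for day 5, on sums to which 0.5 UMI was added. Granule genes lie far to the right of 0 and Meis1, Cd34, Sox4 and Hpgd far to the left in the filled symbols, while Mpo and Ctsg lie near 0.

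Secondary and tertiary granule genes formed the list with the largest median difference among those examined (log2 2.88, against 0.00 for all genes tested), with 23 of 25 tested genes higher and 0 lower. Both the count and the median include the stefin genes Stfa1, Stfa2, Stfa2l1, Stfa3 and BC100530, whose reads may be split between copies. The list also shares genes with others, among them Lyz2 with the primary granule list and Cybb and Cyba with the NADPH oxidase list. Ngp, neutrophilic granule protein, had 262.5, 237.2 and 71.2 CPM in S100a8-high cells of benzarone day 1, benzarone day 3 and DMSO day 1, against 1.05, 2.51 and 0.354 CPM in other cells. The classes did not overlap, as in 46.6% of all genes tested, and the log2 difference was 7.33 (SE 0.22, edgeR adjusted p = 1.34e-06). In the same order of samples, Camp, the antimicrobial peptide cathelicidin, stood at 5.33, 44.2 and 6.36 against 0.164, 0.669 and 0.193 CPM (5.79, SE 0.23). Ltf, the iron-binding lactoferrin, stood at 19.7, 11.7 and 18.2 against 0.526, 0.535 and 0.193 CPM (5.40, SE 0.29). The differences of all 3 genes rest on few cells. The 5 richest cells held 88.9%, 78.2% and 95.7% of the Ngp UMIs of S100a8-high cells in these samples, up to 590, 506 and 304 UMIs in a single cell, while no other cell held more than 3. A single cell held 290 of the 318 Camp UMIs of the class in benzarone on day 3 and 41 of 46 in DMSO, and a single cell held 106 of the 132 Ltf UMIs in DMSO.

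Lcn2 was instead detected in nearly all cells of the class, while several other secreted genes were detected in fewer of them. Lcn2, which encodes the siderophore-binding lipocalin-2, stood at 766.1, 997.1 and 877.3 CPM in S100a8-high cells of benzarone day 1, benzarone day 3 and DMSO day 1, against 99.9, 118.6 and 93.4 CPM in other cells (3.20, SE 0.06, adjusted p = 4.48e-07). A UMI of Lcn2 was found in 98.8%, 97.2% and 97.7% of S100a8-high cells against 72.9%, 67.2% and 67.3% of other cells, or after thinning in 90.7%, 85.9% and 85.3% against 40.7%, 39.3% and 38.4%. A share of cells with a UMI also rises with the level and with free RNA, and no cell type without Lcn2 was at hand for a background. Chil3, a chitinase-like secreted protein, had 478.9, 574.8 and 100.8 CPM against 5.85, 16.7 and 7.31 CPM (5.22, SE 0.41), and 48.15%, 55.37% and 32.2% of S100a8-high cells had a UMI of it, with 44.3%, 34.4% and 44.3% of its UMIs in 5 cells. Pglyrp1, a peptidoglycan recognition protein of granules, was 3.82-fold higher and Lyz2, lysozyme, 2.27-fold. The stefin genes, cysteine protease inhibitors in a near-identical family whose reads may be split between copies, were also higher. Stfa2l1 differed by 5.80, BC100530 by 5.27, Stfa2 by 4.99, Stfa3 by 4.10 and Stfa1 by 3.83 on the log2 scale, and no single member should be read alone. Stfa2 had a UMI in 37.65%, 40.11% and 37.85% of S100a8-high cells, and Stfa2l1 in 43.83%, 51.41% and 49.72%. Lipg, an endothelial-type lipase, was 26.2-fold higher, at 49.2 to 51.8 CPM in S100a8-high against 1.58 to 3.18 CPM in other cells, with a UMI in 31.07% to 46.33% of S100a8-high cells.

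Primary granule genes differed far less. Of 17 tested, 12 were higher and 0 lower, with a median of 0.41. The count includes Lyz2, which the secondary granule list also holds, and genes that do not encode granule enzymes, such as Serpinb1a and Ms4a3. Elane, neutrophil elastase, stood at 790.9, 1057 and 888.6 CPM in S100a8-high cells of benzarone day 1, benzarone day 3 and DMSO day 1 against 423.7, 528.9 and 409.0 CPM in other cells (1.12, SE 0.05, adjusted p = 5.37e-06). Yet fewer S100a8-high than other cells had a UMI of Elane, 72.2%, 71.75% and 72.9% against 85.1%, 78.8% and 85.4%. After thinning the shares were 58.0%, 54.8% and 57.1% against 62.05%, 59.2% and 64.0%. The higher sum of Elane thus lay in part of the class. Serpinb1a, an inhibitor of these proteases, was 3.57-fold higher and Prss57, a related serine protease, 2.77-fold. Prtn3, proteinase 3, was higher by only 0.23 (SE 0.02), and Ms4a3, a tetraspan protein of granulocyte progenitors, by 0.32. Mpo, myeloperoxidase, had 1552, 867.3 and 1601 CPM in S100a8-high against 1901, 1291 and 1715 CPM in other cells and was not called (-0.20, adjusted p = 0.0623). Ctsg, cathepsin G, was not called either (0.14, adjusted p = 0.117). Mpo was called lower under 8 of the 17 alternatives, among them plain totals (-0.32) and the fit without the DMSO sample (-0.32).

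Mature neutrophil surface and signalling genes were mostly higher, 33 of 37 against 2 lower (median 1.23). The chemokine receptor gene Cxcr2 stood at 15.7, 8.76 and 18.8 CPM in S100a8-high cells against 5.19, 3.68 and 5.54 CPM in other cells (1.68, SE 0.13), and the ranges did not overlap. Ly6g, the antigen used to sort mouse neutrophils, was 11.6-fold higher but low, at 9.18, 14.1 and 5.53 CPM against 1.22, 1.14 and 0.354 CPM. Itgb2, the common chain of the leukocyte integrins, was 2.62-fold higher, and Csf3r, the receptor for G-CSF, 1.46-fold. The 2 genes that fell were Clec4d and Clec4e, a pair of C-type lectin receptors named after their values were seen. All 7 genes of the NADPH oxidase were higher, led in size by Cybb, its membrane subunit (2.39, SE 0.14), with Ncf1, a cytosolic subunit, at 1.25. The 6 other S100 genes were all higher as well, among them S100a11 (1.31, SE 0.04) and S100a6 (2.96, SE 0.44).

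Granulocyte transcription factor genes were higher in 12 of 15 cases and lower in 0. Cebpe, which drives secondary granule genes, stood at 128.6, 121.0 and 114.5 CPM in S100a8-high cells of benzarone day 1, benzarone day 3 and DMSO day 1, against 17.8, 23.9 and 14.8 CPM in other cells (2.83, SE 0.11, adjusted p = 3.6e-06). A UMI was found in 58.0%, 44.6% and 54.2% of thinned S100a8-high cells against 10.8%, 15.8% and 11.8% of thinned other cells. Mxd1, a partner of MAX that opposes MYC, was 8.16-fold higher (53.2, 57.9 and 64.4 against 6.57, 8.63 and 8.18 CPM). Smaller differences were seen in Cebpb (0.69), Spi1, the gene of PU.1 (0.66), Cebpd (0.53) and Cebpa (0.40). Gfi1, a repressor of monocyte genes in granulocyte precursors, was not called (0.18, adjusted p = 0.0814). Cebpa lost its call without the benzarone sample of day 1 (0.34, adjusted p = 0.0863).

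**Figure D3:**
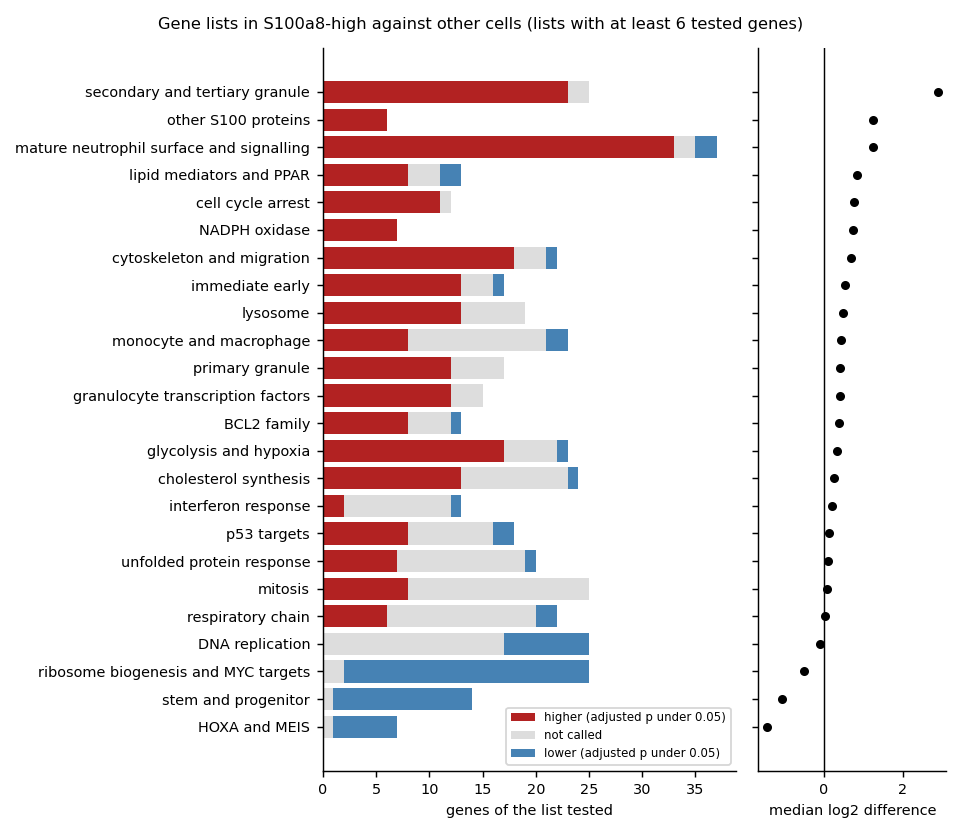
Number of tested genes of each list that were higher, not called or lower in S100a8-high against other cells (left, stacked bars) and the median log2 difference of the list (right, points). Granule, S100 and neutrophil lists stand at the top, and ribosome biogenesis, stem and progenitor, and HOXA and MEIS lists at the bottom, with medians of -0.49, -1.05 and -1.44.

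HOXA and MEIS genes were lower in 6 of 7 cases and higher in 0 (median -1.44). Hoxa9, a homeobox gene of self-renewing progenitors, stood at 103.0, 122.3 and 97.0 CPM in S100a8-high cells of benzarone day 1, benzarone day 3 and DMSO day 1 against 230.7, 210.2 and 224.3 CPM in other cells (-0.93, SE 0.09, adjusted p = 0.000135). Hoxa10 and Hoxa7 were lower by more, both at -1.44, and Hoxa5 at -2.21. Meis1, the DNA-binding partner of HOXA9, had 1.78, 3.20 and 3.18 CPM against 38.6, 28.7 and 38.1 CPM (-3.55, SE 0.18). A UMI of Meis1 was found in 5.56%, 5.65% and 7.91% of S100a8-high cells against 43.7%, 33.4% and 42.8% of other cells. A UMI of Hoxa9 was found in 58.6%, 62.7% and 61.0% of S100a8-high cells against 94.4%, 90.2% and 95.75% of other cells. In its sums the class thus held Hoxa9 RNA at a reduced level, detected in only part of its cells, and little Meis1 RNA. Pbx2, a cofactor of both, was the 1 gene of the list not called and was named after its value was seen.

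The stem and progenitor list was lower in 13 of 14 genes and higher in 0 (median -1.05). Sox4, an HMG-box factor of progenitors, stood at 19.4, 41.7 and 22.1 CPM in S100a8-high against 140.5, 134.9 and 139.1 CPM in other cells (-2.24, SE 0.20). Nkx2-3, a homeobox gene, was lower by 2.05 and Cd34, a progenitor surface sialomucin, by 2.83 on the log2 scale, both in S100a8-high cells. Kit, the stem cell factor receptor on which the founding cells had been isolated, was low in both classes, at 3.26, 1.95 and 3.04 against 6.44, 4.18 and 7.51 CPM (-1.02, SE 0.17). Flt3, a growth factor receptor of early progenitors, stood at 0, 0 and 0.138 CPM against 4.34, 2.94 and 4.61 CPM, too few UMIs for a fold. Of the retinal determination network, to which the EYA phosphatases belong, 3 genes were tested. Six4, a homeobox partner of EYA proteins, was lower at 3.56, 5.98 and 3.04 CPM against 6.47, 7.86 and 8.38 CPM (-0.74, SE 0.21, adjusted p = 0.0225), and this call was lost without the benzarone sample of day 1 (adjusted p = 0.119) or the DMSO sample (adjusted p = 0.116).

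Outside the lists, which do not hold it, Hpgd, the enzyme that inactivates prostaglandins, was the gene with the largest fall among those of at least 50 CPM that moved alike in the 3 samples. It stood at 20.6, 4.73 and 31.4 CPM in S100a8-high cells of benzarone day 1, benzarone day 3 and DMSO day 1 against 471.6, 242.6 and 467.4 CPM in other cells (-4.39, SE 0.25, adjusted p = 1.53e-05). Others named by the same rule fell by less. Nme4, a mitochondrial nucleoside diphosphate kinase, was lower by 1.29 on the log2 scale, Ptprcap, a CD45-associated protein, by 1.20, Ssbp2 by 1.11, Rangrf by 1.11, and Sms, spermine synthase, by 1.02, all in S100a8-high cells.

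Cell cycle genes showed no common direction, while growth genes did. Of 25 DNA replication genes 8 were lower and 0 higher, such as Ung, the uracil-DNA glycosylase (-0.75), and Pola1, the catalytic subunit of polymerase α (-0.48). Of 25 mitosis genes 8 were higher and 0 lower, such as Ube2c (0.32). Among all genes tested, 22.9% were called higher and 19.5% lower. The medians of the replication and mitosis lists were small, at -0.10 and 0.08. Mki67, a marker of cycling cells, had 106.2, 95.6 and 102.6 CPM in S100a8-high against 90.0, 90.0 and 92.9 CPM in other cells (0.27, SE 0.06, adjusted p = 0.00551). That call was lost without the benzarone sample of day 1 (adjusted p = 0.0802) and on thinned cells (adjusted p = 0.117). The list named cell cycle arrest was higher in 11 of 12 cases, including Mxi1, another MAX partner (1.65), and Cdkn2d, an inhibitor of CDK4 and CDK6 (1.10). Its count also holds the cyclin gene Ccnd3 (0.81), which is not an arrest gene. Ribosome biogenesis genes and MYC targets were lower in 23 of 25 cases and higher in 0 (median -0.49). Odc1, ornithine decarboxylase, was lower by 0.49, Nop16 by 0.56 and Gnl3, nucleostemin, by 0.59 on the log2 scale. Myc itself was not called (-0.13, adjusted p = 0.094).

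Further lists held moderate to small differences, to be read against the 22.9% of all genes called higher and 19.5% called lower. Cytoskeleton and migration genes were higher in 18 of 22 cases and lower in 1, led by Tmsb4x, thymosin β4 (0.90, SE 0.03), and Vasp, an actin regulator (1.17). Glycolysis and hypoxia genes were higher in 17 of 23 and lower in 1, with Gpi1 at 0.80. Cholesterol synthesis genes were higher in 13 of 24 and lower in 1, with Fdps, farnesyl diphosphate synthase, at 0.90 and Mvd at 0.82. Lysosome genes were higher in 13 of 19 and lower in 0, with Ctsd, cathepsin D, at 1.15. Immediate early genes were higher in 13 of 17 and lower in 1, with Klf2 at 1.59 and Fos at 1.52. Lipid mediator and PPAR genes were higher in 8 of 13 and lower in 2, with the nuclear receptor Pparg at 2.30, Alox5ap at 0.94 and Lta4h at 0.92. BCL2 family genes were higher in 8 of 13 and lower in 1, with Bcl2a1a, whose near-identical paralogs may share reads, at 1.71 and Mcl1 at 0.61. The last 3 lists had medians close to that of all genes. p53 targets were higher in 8 of 18 cases and lower in 2 (median 0.13, Btg2 at 0.72), unfolded protein response genes higher in 7 of 20 and lower in 1 (median 0.10, Xbp1 at 0.34), and respiratory chain genes higher in 6 of 22, a share near that of all genes, and lower in 2 (median 0.02, Cycs at -0.27).

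Some markers of other blood cells also differed between the classes, beside 22.9% of all genes called higher and 19.5% called lower. The monocyte and macrophage list had 8 of 23 genes higher and 2 lower (median 0.44). Ly6c2, a surface antigen of monocytes and of early granulocytes, stood at 376.9, 457.5 and 447.5 CPM in S100a8-high against 91.1, 116.5 and 87.6 CPM in other cells (2.24, SE 0.08). Adgre1, the macrophage antigen F4/80, was higher by 1.14, Ms4a6c lower (-1.54), and Csf1r (adjusted p = 0.286) and Irf8 (adjusted p = 0.107), a receptor and a factor of the monocyte lineage, were not called. Without the benzarone sample of day 3, Csf1r was called higher (0.69, adjusted p = 0.00269). The 7 monocyte markers used to check the name summed to 475.2 to 586.1 CPM in S100a8-high against 158.9 to 277.9 CPM in other cells, with none at 0. Most of the S100a8-high sum was Ly6c2. It gave 376.9 of 475.2 CPM in benzarone on day 1 and 457.5 of 586.1 CPM in benzarone on day 3. In DMSO it gave 447.5 of 547.2 CPM. In other cells it gave 91.1 of 171.9, 116.5 of 277.9 and 87.6 of 158.9 CPM in the same order. The platelet genes Pf4 and Ppbp summed to 84.7 to 1106 CPM against 28.4 to 1922 CPM, and of 4 megakaryocyte genes 2 were higher (Cd9, 2.82-fold). Of 4 mast cell and basophil genes 1 was higher (Srgn, by 0.44), and of 2 erythroid genes 1 (Blvrb, by 0.80). Of 2 B cell genes and 1 T and NK cell gene 0 were called. The megakaryocyte, mast cell, erythroid and lymphoid lists are too short for their counts to be told from the shares over all genes. Of 3 dendritic cell and MHC class II genes 2 were lower and 1 higher, Cd74, the invariant chain, which passed narrowly (1.38, adjusted p = 0.0479) and failed with 8 of the 17 alternatives. The part of such cells in the results was not tested. The defining genes of eosinophils were not analysed here.

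Within the class, the cells were ordered by the S100a8 plus S100a9 level that had chosen them, and a few genes were described along it. The cells of a sample share 1 library, the genes were chosen with earlier results known, and no test is given. Lcn2 stood at 1481, 2051 and 1690 CPM in cells of at least 30000 ppm in benzarone day 1, benzarone day 3 and DMSO day 1, against 296.2, 501.7 and 378.9 CPM in cells of 1000 to 10000 ppm. Ngp stood at 768.9, 760.7 and 196.0 CPM in the upper cells and at 1.04 to 3.88 CPM in the lower ones, so nearly all Ngp RNA lay in the upper cells. Mmp8, neutrophil collagenase, stood at 901.9, 1100 and 1094 CPM in the upper against 288.6, 517.3 and 309.6 CPM in the lower cells. Camp stood at 15.3, 137.3 and 16.2 CPM in the upper and at 0.290 to 2.69 CPM in the lower cells, and the single cells named above hold most of its UMIs of the class in benzarone on day 3 and in DMSO. Hoxa9 was at 58.6, 78.2 and 60.3 CPM in the upper against 124.4, 147.7 and 115.4 CPM in the lower cells. Mpo was lower in the upper cells, at 1062, 533.5 and 945.2 CPM against 2074, 1157 and 1986 CPM, as was Npm1, a nucleolar protein gene of the growth list, at 1545, 1163 and 1462 CPM against 2739, 1764 and 2426 CPM. Mki67 showed no such order, at 108.5, 79.5 and 103.2 CPM in the upper against 99.5, 107.1 and 97.8 CPM in the lower cells.

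**Figure D4:**
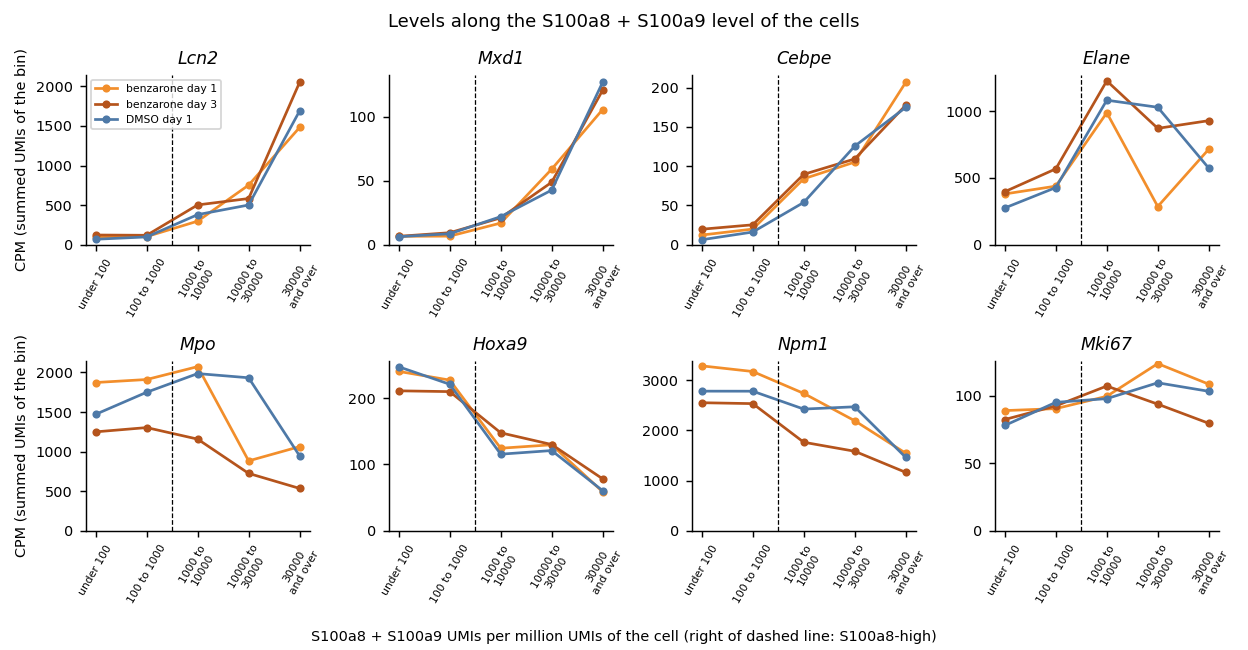
CPM of 8 genes (y) in cells binned by their S100a8 plus S100a9 level (x), with 1 line per sample of days 1 and 3 and the rule as a dashed line. Lcn2, Mxd1 and Cebpe climb to the bin of 30000 ppm and over, Hoxa9 and Npm1 are lowest in that bin, and Mki67 stays between 75 and 125 CPM.

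The cells with at least 5 UMIs of Ngp, Camp and Ltf did not follow the order above in every gene. In the 10, 18 and 8 such cells of benzarone day 1, benzarone day 3 and DMSO day 1, Cebpe stood at 545.2, 327.0 and 351.2 CPM, against 94.5, 83.5 and 89.1 CPM in S100a8-high cells with no UMI of the 3 genes. These cells still held primary granule RNA, with Elane at 2037, 1958 and 1883 CPM against 654.5, 847.7 and 724.8 CPM, and Mki67 at 188.1, 85.2 and 85.9 CPM. Their median S100a8 plus S100a9 level was 152608, 134306 and 103633 ppm. Mpo stood at 2299, 616.5 and 2141 CPM in them against 1456, 796.7 and 1487 CPM in the cells with no UMI. Mmp8 stood at 172.2, 602.8 and 933.9 CPM against 632.6, 859.4 and 617.1 CPM. When the class was limited to cells without any such UMI, 2050 genes were higher and 1644 lower than in other cells, and 3516 of the 4004 calls (87.8%) were kept in the same direction.

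Benzarone was compared with DMSO within S100a8-high cells of day 1, and day 3 with day 1 within those of benzarone, from 1 sample each, so that no test exists. A gene was counted when its CPM differed at least 2-fold, its exact Poisson intervals did not overlap and the higher sample had at least 50 CPM and 20 UMIs. On day 1, 11 of 2534 genes (0.434%) were higher in benzarone and 0 (0%) lower, against 0.156% and 0% in other cells. Ccl2, a monocyte-attracting chemokine, stood at 247.8 CPM (236.1 to 260.0) in benzarone against 17.6 (14.6 to 20.9) in DMSO, with 98.5% and 96.1% of its UMIs in 5 cells. Chil3 stood at 478.9 (462.6 to 495.7) against 100.8 (93.6 to 108.4) and Ngp at 262.5 (250.4 to 275.0) against 71.2 (65.2 to 77.6). Ppbp, a platelet chemokine, was 4.17-fold and AA467197 3.93-fold higher. Of these only AA467197 and Chil3 had less than 55% of their UMIs in 5 cells in both samples. Plin2, the lipid droplet protein, named after its value was seen, was broadly spread, at 482.9 (466.5 to 499.8) in benzarone against 181.2 (171.6 to 191.3) in DMSO with UMIs in 161 and 171 cells, and its log2 ratio was 1.41 in S100a8-high cells and 1.56 in other cells, where it stood at 166.3 against 56.5 CPM.

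From day 1 to day 3 of benzarone, 14 of 2562 genes (0.546%) were higher and 1 (0.039%) lower, against 1.99% and 0% in other cells. Pf4 stood at 108.1 CPM (100.6 to 116.0) on day 3 against 16.7 (13.8 to 20.1) on day 1, Ifi27l2a, an interferon-inducible gene, at 59.7 (54.2 to 65.6) against 9.78 (7.56 to 12.4), and the histone gene Hist1h2bc at 77.3 (71.0 to 84.0) against 17.3 (14.3 to 20.8). Ppbp was 3.59-fold and the chemokine gene Cxcl3 3.12-fold higher. Lyz2, named after its value was seen, rose 3.11-fold in S100a8-high cells, at 5130 against 1649 CPM, and alike in other cells, at 2395 against 773.7 CPM. Of the 14 genes, 7 met the same rule in other cells. The single gene lower on day 3 was Cd74.

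The differences of days 1 and 3 were looked up in the cells of day 5, which that test had not used but which the same S100a8 plus S100a9 rule had split. Genes that follow S100a8 from cell to cell differ there by the split itself, so the counts are a description. Of 392 genes called at least 2-fold higher on days 1 and 3 and listed on day 5, 273 were above 0 in benzarone (69.6%) and 391 in DMSO (99.7%), and the median log2 difference was 0.26 in benzarone and 1.73 in DMSO. Of 132 genes called at least 2-fold lower, 22 were above 0 in benzarone and 3 in DMSO. Over all 9161 genes, 50.4% were above 0 in benzarone and 45.3% in DMSO. Each condition was part of 1 sample, so the difference between them was not tested, and the other cells of day 5 in benzarone include the cells nearest to the threshold described above.

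Within the S100a8-high cells of day 5 the conditions stood far apart. By the 2-fold rule 231 of 2676 genes (8.63%) were higher and 191 (7.14%) lower in benzarone against DMSO, with a median of -0.22 over all genes, and 212 and 174 of them met the rule in the same direction in other cells, where 17.1% and 19.1% of genes met it. Ngp stood at 1810 CPM in S100a8-high cells of benzarone against 1010 in those of DMSO, Camp at 244.3 against 98.2, and Ltf at 443.1 against 147.6. These sums too rest on few cells. The 5 richest S100a8-high cells held 25.05% of the Ngp UMIs in benzarone and 40.6% in DMSO. For Camp they held 62.9% and 64.6%, and for Ltf 27.8% and 65.95%, in the same order. At least 5 UMIs of the 3 genes were found in 102 of 663 benzarone (15.4%) and 42 of 337 DMSO S100a8-high cells (12.46%), and in 0 other cells. Median UMIs per S100a8-high cell of day 5 were 17034 in benzarone and 23993 in DMSO, below those of days 1 and 3. A share at a fixed number of UMIs depends on depth, so these shares cannot be compared directly with each other or with earlier days. In other cells of day 5, Ngp stood at 10.5 CPM in benzarone and 11.5 in DMSO with at most 3 UMIs in a cell, a level spread over many cells. Mpo stood at 88.6 (83.3 to 94.1) in benzarone against 1319 (1294 to 1345) CPM in DMSO, Elane at 94.1 against 679.6 and Hpgd at 2.24 against 73.4. Ear2, a ribonuclease of the eosinophil-associated family, was 72.7-fold higher, Rtp4 35.3-fold, Retnlg, a resistin-like protein of neutrophils, 30.3-fold, the interferon-induced Isg15 28.3-fold and Arg1, arginase, 26.7-fold. Phgdh, of serine synthesis, was 5.17-fold lower and Dmkn 4.95-fold lower. In other cells Retnlg stood at 1.37 CPM in benzarone and 1.42 in DMSO.

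**Figure D5:**
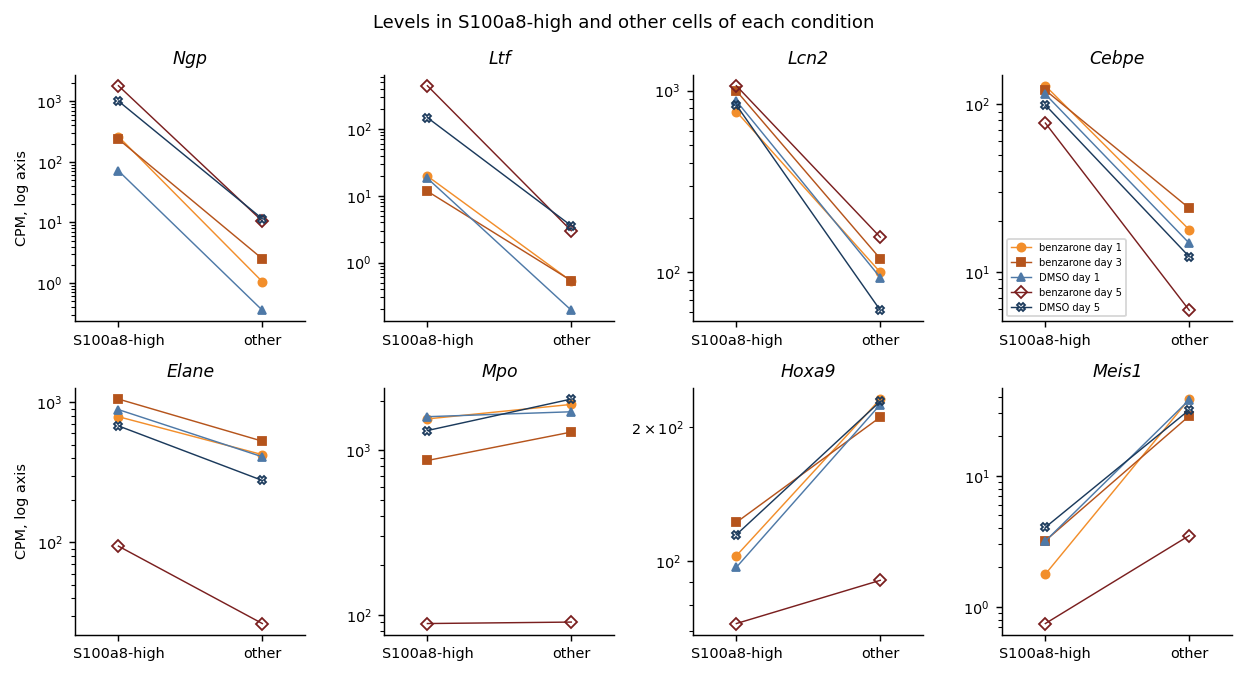
CPM (y, log axis) of 8 genes in S100a8-high and other cells (x) of each condition, with lines joining the 2 classes of a condition and open symbols for day 5. Ngp, Ltf, Lcn2, Cebpe and Elane slope down towards other cells in every condition, Hoxa9 and Meis1 slope up, and Mpo and Elane in benzarone on day 5 lie far below the other conditions.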

How the data were processed

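Single MOZ-TIF2 cells were read as whole counts of UMIs per gene and cell, as deposited by the authors and made with Cell Ranger 3.0.0 on GRCm38, per the submitters' processing notes; hashtags parted the pooled cells, per the labels' protocols. Only the listed genes enter totals and CPM, 9448 in the table of the earlier days and 11662 in that of day 5. Totals of the classes, without S100a8 and S100a9, were 6750638 to 7233703 UMIs for S100a8-high and 29895120 to 31039826 for other cells on days 1 and 3. The bulk RNA tables were not used. The Ty1 peak lists, as deposited, hold intervals without scores and served only for distances.

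No cell had under 6108 UMIs, so none was removed, and no doublet caller was run. UMIs were summed per sample and class and fitted with edgeR 4.0.16 in R 4.3.3 (filterByExpr, TMM, quasi-likelihood F test, sample as block, Benjamini-Hochberg threshold 0.05). On simulated data of this comparison with 9443 genes, 70% of genes changed 1.5-fold and 98% of those changed 2-fold were found, and 0.195% of unchanged genes were called. Those were 18 genes, beside 35, 49, 50 and 50 genes found at 1.5-fold, 2-fold, 4-fold and 8-fold. Only 50 genes were changed at each fold, while 42.4% of all genes were called in the data. The simulated rates therefore do not carry over to the 4004 calls. Each condition was 1 sample, so p-values measure the spread between 3 samples of different treatment that may share a culture. The sample block pairs the 2 classes because their cells come from the same sample. Each SE is the size of the log2 difference divided by the square root of its F statistic. It does not measure the spread between cells. Intervals (95%) are exact binomial or Poisson and cover counting error only. DESeq2 1.42.0 was an alternative. Thinning drew 10000 UMIs per cell once.

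The members and the 32 gene lists were chosen with earlier results of these data known; 1 list is not reported here. Genes named come from a rule: a fixed set, the 10 largest rises and falls of at least 50 CPM alike in 3 samples, up to 4 called members per list by smallest p, and the 5 largest ratios each way within the class.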

Additional observations from a re-analysis of the deposited data

Results flagged for a closer look

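In a few genes the same contrast pointed one way in one set of cells and the other way in another; each rests on 1 sample per condition and the difference was not tested. Chil3 was higher in benzarone than in DMSO on day 1 in S100a8-high cells (log2 ratio 2.25) and lower in other cells (-0.32). In other cells, 5 cells held 37.6% of its UMIs in benzarone and 66.1% in DMSO. The share of other cells with a UMI went the other way, at 10.7% in benzarone against 7.08% in DMSO. Cxcl2, a neutrophil-attracting chemokine, showed 1.08 in S100a8-high and -0.48 in other cells, with 44.1% of its UMIs of the benzarone S100a8-high cells in 5 cells. Cd74 on day 3 against day 1 of benzarone showed -1.09 in S100a8-high and 1.81 in other cells, and 72.9% and 81.2% of its UMIs in the class came from 5 cells on day 3 and day 1. Between the classes, Adgre1 (-0.59) and Ctsd (-0.61) were lower in S100a8-high than in other cells in benzarone on day 5 and higher in each of the other 4 conditions.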

How the results depend on the processing

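Every alternative kept more genes higher than lower except plain totals, and of the 90 genes whose values were recomputed under 17 alternatives, 69 kept their call and direction in all. Of 1527 values 37 lost a call, 16 gained one and 3 changed sign, all 3 in genes not called: Ctsg (-0.023) and Gfi1 (-0.18) in S100a8-high cells without a UMI of Ngp, Camp or Ltf, an alternative chosen after seeing the data as was that without shared barcodes, and Irf8 on thinned cells (0.043). Without the block of samples, which pairs the 2 classes of a sample, 1168 genes were higher and 812 lower, against 2161 and 1843 with it, and all 1980 were among the 4004; of the 90 genes 13 lost their call, among them Lyz2 (adjusted p = 0.215), Adgre1, Csf3r, Ctsd and Plin2. With 1 sample left out at a time, 1318 to 2145 genes were higher and 818 to 1700 lower, the lowest without benzarone on day 1. Genes lower numbered 3065 with plain totals, 1113 with DESeq2, 1161 with only cells under 100 ppm as the other class and 1000 on thinned cells.

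The share moved with the threshold. At 500, 2000 and 5000 ppm it was 22.6%, 16.6% and 14.0% in benzarone on day 1, 23.4%, 17.3% and 14.0% in DMSO on day 1, 65.4%, 34.5% and 27.1% in benzarone on day 5 and 42.7%, 17.3% and 15.0% in DMSO on day 5. It was 24.9% at 500 and 14.6% at 5000 in benzarone on day 3. Genes lower in benzarone against DMSO on day 1 within the class numbered 1 at 500 ppm, and those lower on day 3 against day 1 numbered 3 at 500 and 2 at 5000. Depth limits the Ngp, Camp and Ltf counts of single cells: a cell without a UMI may hold the RNA.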
